A study of Mus musculus with 4 samples.

Results

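Myelin and Schwann cell genes were followed in tibialis anterior muscle, from the front of the shin, through 7 listed genes: Mbp, Pmp22, Prx, Mag, Sox10, S100b and Ngfr. Members were all probe sets whose single gene symbol in the platform annotation was one of these genes, which gave 18 of 34945 single-gene probe sets and 6 of the 7 genes. No single-gene probe set carried Prx, the gene of periaxin, in the annotation used here, so Prx was not analysed. The samples were 4 Affymetrix Mouse Genome 430 2.0 arrays of total RNA, 1 per group: mdx at 1 month, mdx at 3 months, mdx/MMP-2-/- at 1 month and mdx/MMP-2-/- at 3 months, all of strain C57BL/6J. Mice of all 4 groups carry the mdx mutation, which removes dystrophin from the muscle membrane and makes them a model of Duchenne muscular dystrophy. The mdx/MMP-2-/- mice, mdx/MMP-2 null in the plots and the double mutant below, also lack matrix metalloproteinase 2, a secreted gelatinase that degrades basement membrane. No group of wild-type mice was analysed here, so growth between 1 and 3 months and the course of the dystrophy cannot be told apart. The sources used here do not say how many mice each RNA came from.

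Schwann cells are the glia of peripheral nerve. In a limb muscle they wrap the motor and sensory axons of the intramuscular nerve branches, and non-myelinating Schwann cells cap the nerve terminal at the neuromuscular junction. Myelinating Schwann cells stack their membrane into compact myelin, held together by basic and transmembrane proteins, under the control of transcription factors such as Sox10 and Egr2. In RNA of a whole muscle these cells are a small part, and fewer Schwann cells cannot be told apart from less RNA per Schwann cell.

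Signals were MAS5 intensities, brought to a common distribution over the 4 arrays by quantile scaling. Scaled signals under 17.4, the 50th percentile of all signals, counted as at the floor; where 1 side of a fold is at the floor, the fold is a lower bound. Each gene was read through the brightest of its single-gene probe sets, by mean signal, and 12801 genes were above the floor on at least 1 array. Before scaling, the 2% trimmed mean of the signals lay between 90.4 and 122, highest in the double mutant at 3 months. The tissue label fitted its markers: all 12 muscle fibre markers were measured, with a summed scaled signal between 148003 and 150538. Mmp2 had scaled signals of 985 and 805 in the mdx arrays at 1 and 3 months against 24.7 and 40.9 in the double mutant arrays. Dmd, mutated in all 4 groups, gave 123 and 124 at 1 month and 154 and 113 at 3 months in its brightest probe set. Dimmer probe sets disagreed: 1 was lower with age (36.7 to 22.3 in mdx, 48.2 to 25.5 in the double mutant). Another was higher (28.8 to 44.1 and 24.0 to 36.3). These signals say nothing of dystrophin protein. Actb probe sets at the 3' and 5' ends, which report on RNA integrity, stood in a ratio of 1.19 (mdx) and 1.05 (double mutant) at 1 month against 2.36 and 2.09 at 3 months. The same ratio for Gapdh differed little, at 0.883 and 0.850 at 1 month and 0.936 and 0.935 at 3 months. The number of arrays limits the precision. With 1 array per group no difference between 2 arrays has a test or an error, and "higher" and "lower" describe those arrays.

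RefSeq windows of 250 bases before a transcription start (GRCm38.p6) were at hand for 5 of the 7 genes, and some of those of Pmp22 and Mag are shown because Sox10 is itself a member and SOX factors act at Schwann cell promoters. The first and the second start of Pmp22 (chr11:63128732-63128981 and chr11:63131207-63131456, both on the + strand) and the most upstream start of Mag (chr7:30914923-30915172, - strand) read as follows, 5′ to 3′, with a match to the SOX core ACAAAG on either strand in capitals.
Pmp22, first start: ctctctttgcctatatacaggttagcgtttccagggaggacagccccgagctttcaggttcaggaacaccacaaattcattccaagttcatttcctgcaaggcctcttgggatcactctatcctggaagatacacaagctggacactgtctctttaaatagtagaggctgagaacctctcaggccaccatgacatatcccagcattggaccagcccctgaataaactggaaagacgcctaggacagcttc
Pmp22, second start: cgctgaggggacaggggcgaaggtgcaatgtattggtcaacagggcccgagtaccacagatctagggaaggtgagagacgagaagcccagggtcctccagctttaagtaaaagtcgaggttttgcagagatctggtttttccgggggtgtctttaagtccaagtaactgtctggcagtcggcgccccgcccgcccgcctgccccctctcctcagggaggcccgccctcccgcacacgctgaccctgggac
Mag: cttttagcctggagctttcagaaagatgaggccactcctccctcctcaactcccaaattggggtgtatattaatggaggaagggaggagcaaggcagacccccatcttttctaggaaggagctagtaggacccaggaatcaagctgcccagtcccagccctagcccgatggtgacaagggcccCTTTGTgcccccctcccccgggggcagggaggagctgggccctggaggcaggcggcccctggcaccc

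The Mag window held 1 SOX core, whose first base lay 67 bases before the start. The same letters fell in the window of a second Mag start further into the gene, which overlaps it, and the other Mag window held none. Of 32851 RefSeq promoter windows of this length, 16.5% held the SOX core. No SOX core stood in the windows of Pmp22 (4 starts), S100b, Ngfr or Prx. The EGR core GTGGGNG, sought on both strands because Egr2 works beside Sox10, stood in the Prx window and in that second Mag window, and in 28.1% of all windows; it shared no letters with a SOX core in these windows. The 4 Pmp22 windows differed in base composition, with 48.8% G and C before the first start against 61.2%, 64.8% and 73.6% before the other three, and the single Pmp22 probe set gives no level per start. These matches describe letters and not binding.

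Mbp encodes myelin basic protein, which holds the inner faces of the myelin membrane together. Its brightest probe set had scaled signals of 526 in mdx and 786 in the double mutant at 1 month, and of 296 and 310 at 3 months. Both 1-month arrays were thus above both 3-month arrays, with the double mutant at 1 month highest of the 4. On the log2 scale Mbp was higher in the double mutant by 0.58 at 1 month (1.49-fold) and by 0.07 at 3 months (1.05-fold). From 1 to 3 months it was lower by 1.78-fold in mdx (log2 difference -0.83) and by 2.53-fold in the double mutant (-1.34).

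Mbp has 8 probe sets on this array, of which 7 passed the floor on at least 1 array and 5 on all 4. The 4 brightest had the same order of arrays, with the highest signal in the double mutant at 1 month. The second brightest gave 171 in mdx and 276 in the double mutant at 1 month, then 137 and 161 at 3 months. The third gave 152 and 251, then 105 and 114. The fourth gave 105 and 159, then 62.9 and 70.1. The second and the fourth are of the _x_at class, whose probes may bind other transcripts. Over these 4 probe sets the genotype fold lay between 1.49 and 1.65 at 1 month and between 1.05 and 1.18 at 3 months, higher in the double mutant each time. The age fold lay between 1.25 and 1.78 in mdx and between 1.71 and 2.53 in the double mutant, lower at 3 months each time. Probe sets of 1 gene read the same RNA, so their likeness is no replication.

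Of the 4 dimmer Mbp probe sets, 1 kept that order of arrays. The brightest of them, also of the _x_at class, gave 18.9 in mdx and 67.3 in the double mutant at 1 month and 58.7 and 33.1 at 3 months, so that it was higher in mdx at 3 months than at 1 month. A probe set of the _s_at class, shared among transcripts, gave 30.6 in mdx and 14.6, under the floor, in the double mutant at 1 month, and 34.5 and 24.9 at 3 months. Another had the order of the 4 brightest but passed the floor only at 1 month, at 20.5 and 26.7 against 7.59 and 9.56 at 3 months, and the last passed it on no array. With the mean of all 8 probe sets, the age difference of Mbp in mdx was -0.11 and its genotype difference at 3 months -0.09.

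**Figure D1:**
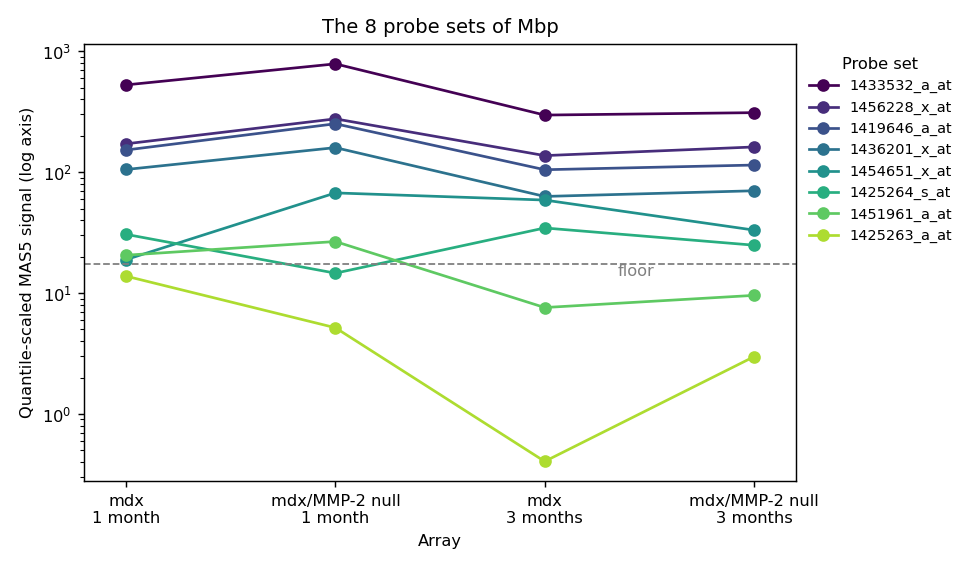
Quantile-scaled MAS5 signal (log axis) of the 8 Mbp probe sets on the 4 arrays; lines join the points of a probe set and the dashed line is the floor of 17.4. The 4 brightest share 1 order of arrays, with their maximum in the double mutant at 1 month, as does 1 dim probe set that is under the floor at 3 months.

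Pmp22 encodes peripheral myelin protein 22, a tetraspan protein of compact myelin that is also made, at lower levels, by fibroblasts and other cells. Its single probe set gave 1074 in mdx and 1364 in the double mutant at 1 month, and 722 and 884 at 3 months. The arrays stood in the same age order as for Mbp, both 1-month arrays above both 3-month arrays, and the double mutant above mdx at each age. The genotype differences were 0.35 at 1 month (1.27-fold) and 0.29 at 3 months (1.22-fold). The age differences were -0.57 in mdx (1.49-fold lower) and -0.63 in the double mutant (1.54-fold lower).

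Mag encodes myelin-associated glycoprotein, an adhesion molecule on the inner, axon-facing membrane of the sheath. Its single probe set was under the floor in mdx at 1 month (4.45) and just above it on the other 3 arrays, at 20.6 in the double mutant at 1 month, 20.8 in mdx at 3 months and 24.2 in the double mutant at 3 months. Mag was therefore at least 1.18-fold higher in the double mutant at 1 month, and 1.16-fold higher at 3 months. All 4 signals lay close to or under the floor, where MAS5 signals carry little information on the transcript.

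Sox10, the transcription factor that defines the Schwann cell lineage, was read by 3 probe sets, 1 of which passed the floor on all arrays. That probe set gave 42.3 in mdx and 22.9 in the double mutant at 1 month, and 31.1 and 21.7 at 3 months. Both mdx arrays were above both double mutant arrays, with genotype differences of -0.89 and -0.52. A second probe set went the opposite way, with 17.4 in mdx, at the floor, and 24.0 in the double mutant at 1 month, and 6.09 and 28.5 at 3 months. The third stayed at or below 2.30 on all 4 arrays. The direction of the Sox10 genotype difference thus depended on the probe set.

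S100b encodes a calcium-binding protein used to stain Schwann cells, and also made by some adipocytes. Its brighter probe set gave 32.8 in mdx and 34.1 in the double mutant at 1 month, and 25.2 and 27.1 at 3 months. Both 3-month arrays were lower, by 0.38 in mdx and 0.33 in the double mutant on the log2 scale, and the genotype differences were 0.06 and 0.11. The other probe set gave 21.6 and 17.8 at 1 month and 21.4 and 29.6 at 3 months, so that the double mutant was higher, not lower, at 3 months than at 1 month.

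Ngfr encodes the p75 neurotrophin receptor, which is high in immature, non-myelinating and denervated Schwann cells. Of its 3 probe sets, 2 were under the floor on all arrays. The third gave 36.7 in mdx and 26.1 in the double mutant at 1 month, and 17.6 and 24.4 at 3 months. The mdx array was highest at 1 month and lowest at 3 months, and the double mutant arrays lay between, so the genotype difference was -0.49 at 1 month and 0.47 at 3 months. The lowest of these signals was barely above the floor.

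**Figure D2:**
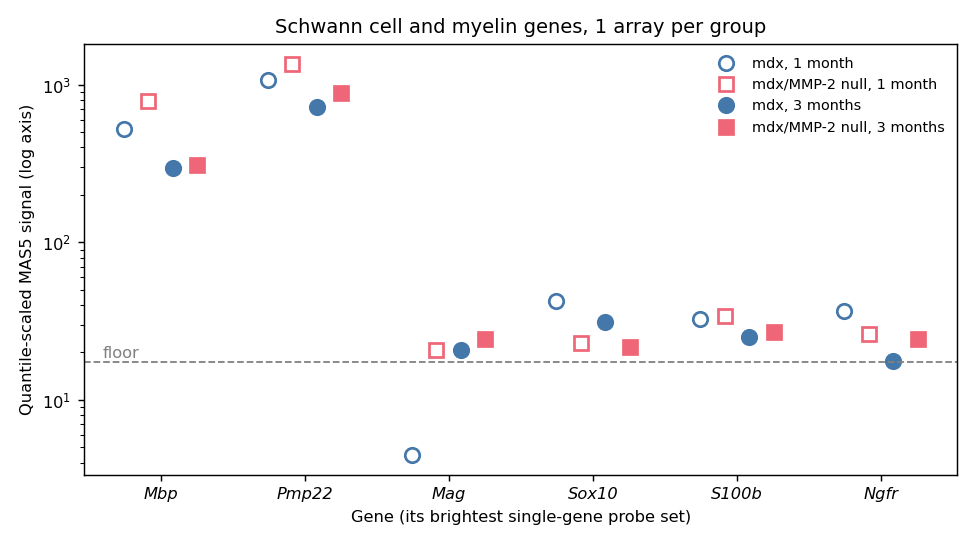
Quantile-scaled MAS5 signal (log axis) of the brightest single-gene probe set of each of the 6 genes on the 4 arrays; colour and shape mark genotype, open and filled symbols mark age, and the dashed line is the floor of 17.4. Mbp and Pmp22 lie far above the floor, with both 1-month arrays above both 3-month arrays, and Mag, Sox10, S100b and Ngfr lie near the floor.

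The first comparison set the genotypes side by side at 1 month. Of the 6 genes, Mbp, Pmp22, Mag and S100b were higher and Sox10 and Ngfr lower in the double mutant, and the median over the 6 was 0.15 on the log2 scale against 0.0 over all 12801 genes. None of the 6 was at or past 2-fold, a limit reached by 1.15% of all genes (0.57% upward and 0.578% downward). Mbp stood at the upper edge of the array-wide spread, since 3.66% of genes had a difference as high, and Sox10 at the lower edge, with 0.922% as low. For Pmp22 10.3% of genes had a difference as high.

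The second comparison did the same at 3 months. Mbp, Pmp22, Mag, S100b and Ngfr were higher and Sox10 was lower in the double mutant, with a median over the 6 of 0.16. None was at or past 2-fold, against 1.6% of all genes (1.18% upward and 0.422% downward). Mbp was inside the bulk of genes here, with 39.2% of genes as high, and Pmp22 had 18.0% as high. For Sox10 4.66% of genes had a difference as low. Over both ages, 4 of 6 genes were higher in the double mutant at each age, as were 22.3% of all genes. Without scaling, where the median of all genes at 3 months moved by 0.41, Mbp and Pmp22 had differences of 0.53 and 0.72, and the median of the 6 genes was 0.59. The 12 macrophage markers were all higher in the double mutant at 3 months, against 47.6% of all genes, with a summed signal of 10292 against 6859. In the same comparison 8 of 10 fibroblast markers were higher, with 45655 against 43148. The part of these cells in the Pmp22 difference was not tested.

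The third comparison set 3 months against 1 month in mdx. Mbp, Pmp22, Sox10, S100b and Ngfr were lower at 3 months and Mag was higher, with a median of -0.51 against 0.0 over all genes. Ngfr alone was at or past 2-fold (log2 difference -1.06, from 36.7 to 17.6), a limit reached by 2.52% of all genes (0.976% upward and 1.55% downward). For Mbp 3.05% of all genes had a difference as low, and for Pmp22 7.76%. When a gene was the mean of its probe sets, the median of the 6 was -0.17 and none was past 2-fold; Ngfr was also short of 2-fold without scaling (-0.98), with a floor at the 60th percentile (-0.28) and with a pseudocount in place of the floor (-0.88). With that pseudocount Mag, under the floor at 1 month, was past 2-fold in the other direction (1.44), and with a floor at the 40th percentile it was at 0.91. Of all genes, 713 were at least 2-fold higher with that pseudocount, against 125 in the main setting.

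The same difference in the double mutant placed Mbp lowest. The same 5 genes were lower at 3 months and Mag was higher, with a median of -0.21 against a median of all genes of 0.00. Mbp alone was at or past 2-fold (-1.34), a limit reached by 2.69% of all genes (1.47% upward and 1.22% downward). For Mbp 0.43% of all genes had a difference as low, and for Pmp22 5.62%. Mbp was short of 2-fold without scaling (-0.95) and as the mean of its probe sets (-0.69). Sox10 (-0.07) and Ngfr (-0.09) were close to 0, and their sign turned or was lost under 3 and 2 of 8 alternatives of processing. S100b was higher at 3 months (0.20) as the mean of its probe sets. In both genotypes 5 of 6 genes were lower at 3 months, as were 28.0% of all genes. The comparisons share arrays: the 1-month array of the double mutant, in which Mbp was highest, enters both the genotype difference at 1 month and this one.

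**Figure D3:**
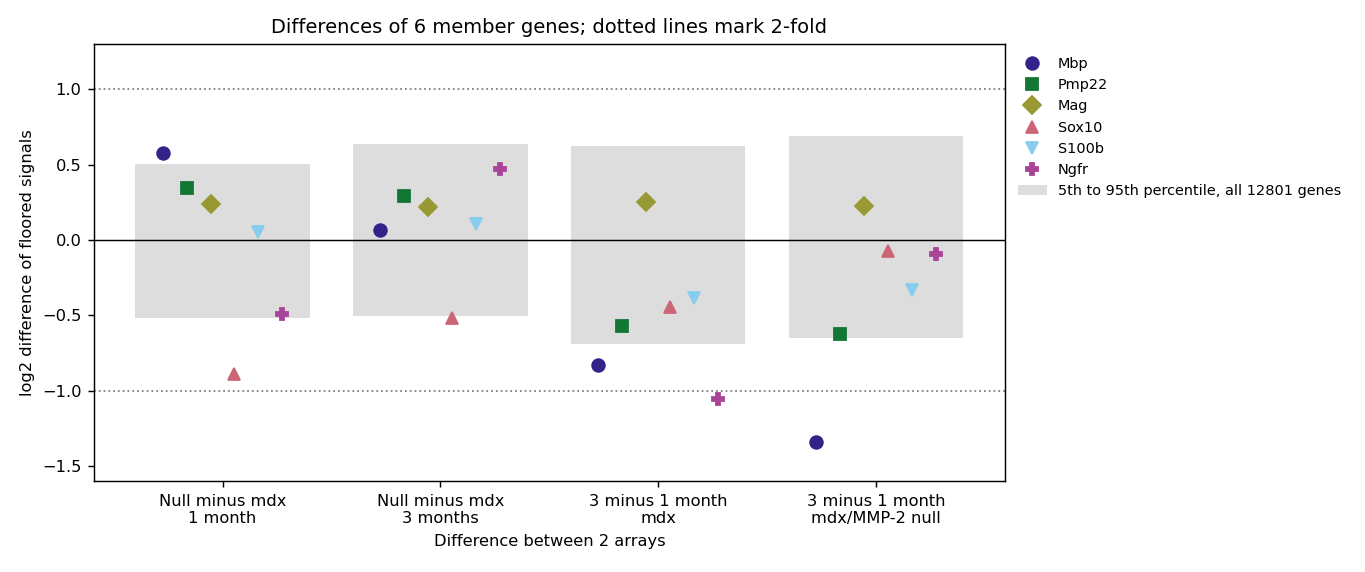
Log2 differences of floored signals for the 6 genes in the 4 differences between 2 arrays; grey bars span the 5th to the 95th percentile of all 12801 genes and dotted lines mark 2-fold. Mbp lies above the grey bar for genotype at 1 month and below it for age in both genotypes, and Ngfr lies below -1 for age in mdx. Sox10, in its brightest probe set, lies below the grey bar for genotype at both ages.

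An additive model of genotype and age, fitted in limma to all 4 arrays, left 1 residual degree of freedom per gene and was the only test the design allowed. The model assumes that the genotype difference is the same at both ages. In fact it moved from 1 to 3 months by -0.51 for Mbp and by 0.96 for Ngfr. The SE and p of the model rest on such departures and measure no spread between mice of a group, which the model cannot estimate. It called 0 of the 6 genes and 0% of all 12801 genes for either term at an adjusted p under 0.05. For age, Mbp had a log2 difference of -1.08 ± 0.19 (SE; limma adjusted p = 0.288) and Pmp22 of -0.60 ± 0.15 (limma adjusted p = 0.289), both lower at 3 months in 2 of 2 genotypes. For genotype, Sox10 had a difference of -0.70 ± 0.17 (limma adjusted p = 0.982), lower in the double mutant at 2 of 2 ages in that probe set. At an unadjusted p under 0.05, Mbp and Pmp22 were called for age, with 1756 genes in all (13.7%), and Sox10 for genotype, with 560 (4.37%). With a variance prior that follows signal, the age term called Mbp (limma adjusted p = 0.0384) and 130 genes in all (1.02%), with Pmp22 at 0.0506; its genotype term called none of the 6 and 0.00781% of all genes. The remaining genes had limma adjusted p between 0.394 and 0.549 for age and between 0.982 and 0.999 for genotype in the first fit.

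The other genes of peripheral nerve were followed in 7 lists of 107 different genes, of which 79 were measured, 17 were at the floor on all arrays and 11 were in no single-gene probe set used here. Gjb1, the gap junction protein of Schwann cells, and Cldn19, a claudin of the sheath, were at the floor throughout. No measured gene of the 79 was at or past 2-fold for genotype at 1 month, against 1.15% of all genes. At 3 months 1 was (all genes 1.6%), for age in mdx 2 (2.52%), and for age in the double mutant 5 (2.69%). These counts and shares use the lower bound where 1 signal was at the floor. Pou3f1 was just short of 2-fold by such a bound (1.997), higher in the double mutant at 1 month and lower there with age.

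Of the 12 measured genes of compact myelin and the myelin membrane, 10 were lower at 3 months in the double mutant, with a median of -0.43. Among these 10, Pllp and Pmp2 were under the floor at 3 months, so their differences are bounds. Of all genes 45.7% were lower in that comparison. In mdx 7 of the 12 were lower, against 47.7% of all genes, with a median of -0.18. Mal, a proteolipid of myelin membrane traffic, had scaled signals of 37.6 in mdx and 71.8 in the double mutant at 1 month, and 32.4 and 28.3 at 3 months, and so was 2.53-fold lower with age in the double mutant. Tspan2, a tetraspanin, gave 74.8 and 88.1, then 52.1 and 39.2, which was 2.25-fold lower with age in the double mutant. Pllp, plasmolipin, gave 25.2 and 35.2, then 29.8 and a signal under the floor. Mal and Tspan2, like Mbp, had their highest signal in the double mutant at 1 month. Another probe set of Mal went the opposite way for genotype, and another of Tspan2 for genotype at 3 months. At 1 month 9 of the 12 genes were higher in the double mutant than in mdx (median 0.18), against 46.8% of all genes.

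Ncmap encodes non-compact myelin associated protein. It gave 39.6 in mdx and 35.7 in the double mutant at 1 month and 17.8 and 24.9 at 3 months. In mdx it was 2.23-fold lower with age. Cnp, an enzyme of the myelin cytoplasm, varied little, between 191 and 230. For genotype at each age and for age in mdx, 1 of 2 other Cnp probe sets went the opposite way. Pmp2, a lipid-binding protein of peripheral myelin, passed the floor in the double mutant at 1 month alone, at 25.5. At 3 months the genotype median of this list was 0.00, with 6 genes higher and 5 lower.

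The genes of myelin channels, paranodes and adhesion (14 measured) were lower at 3 months in 10 cases in mdx (median -0.17) and in 9 in the double mutant (median -0.22). Of all genes, 47.7% and 45.7% were lower in these comparisons. Cadm4, an adhesion molecule that joins the sheath to the axon, gave 49.0 and 78.1 at 1 month and 41.8 and 38.5 at 3 months, 2.03-fold lower with age in the double mutant. Drp2, a dystrophin-related protein that binds periaxin in the Schwann cell membrane, gave 56.5 and 80.7, then 53.5 and 69.1, and so was higher in the double mutant at each age (1.43-fold and 1.29-fold). Lama2, the laminin chain of Schwann cell and muscle basement membrane, gave 548 and 684, then 370 and 398. Adgrg6, a receptor needed to start myelination, passed the floor in mdx at 1 month and in the double mutant at 3 months only, at 26.3 and 32.5, with another probe set going the opposite way for genotype at 1 month.

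Myelin lipid enzymes (10 measured) had age medians of -0.07 in mdx and 0.05 in the double mutant. Ugt8a, which makes the galactolipids of myelin, gave 38.6 and 50.1 at 1 month and 21.1 and 24.9 at 3 months. Its order of arrays was that of Mbp, with age folds of 1.83 in mdx and 2.01 in the double mutant. Aspa and Sc5d, which supply acetate and sterol, went the other way with age in mdx, by 0.74 and 0.60, although another Sc5d probe set was lower.

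Schwann cell transcription factors (13 measured) had medians of -0.12 and 0.09 for genotype at 1 and 3 months, and of -0.02 and 0.11 for age in mdx and the double mutant. Egr2, which drives the myelin genes, gave 36.9 and 33.9 at 1 month and 41.5 and 44.8 at 3 months, so that this probe set was not lower at 3 months. Another Egr2 probe set went the opposite way for age in mdx and for genotype at 1 month. Pou3f1, a factor of promyelinating cells, was above the floor in the double mutant at 1 month (34.8) and in mdx at 3 months (19.8) only. Egr1, an immediate early factor of many cells, was highest in mdx at 1 month (527, against 331, 298 and 317 on the other arrays). Id2, an inhibitor of differentiation factors, was lowest in the double mutant at 1 month (253, against 368 to 408). Of its 2 other probe sets, 1 went the opposite way for genotype at 3 months.

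Among Schwann cell signals and receptors (13 measured), Erbb3, the neuregulin receptor of Schwann cells, gave 120 and 131 at 1 month and 100.2 and 109 at 3 months. Its order of arrays was that of Pmp22, with differences of at most 0.27 on the log2 scale. Its partner Erbb2 was lowest in mdx at 3 months (22.7, against 34.2 to 40.3). Ret, a receptor of glial-derived factors, gave 99.7 and 80.9, then 46.7 and 75.1, and was 2.13-fold lower with age in mdx, although another probe set went the opposite way. Dhh and Cdh19, markers of the lineage, did not exceed 29.5 on any array.

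Of the intermediate and other Schwann cell markers (11 measured), Plekha4 was highest in the double mutant at 1 month (73.1, against 47.8 to 51.7 elsewhere). Matn2, a matrix protein of nerve and muscle, gave 225 and 244, then 131 and 188. Another probe set of Plekha4 went the opposite way for age in mdx, and another of Matn2 for genotype at 3 months. Art3 was highest in mdx at 3 months, at 1840. The list medians lay between -0.09 and 0.09. Of the S100 family, relatives of S100b made mostly by other cells, 6 of the listed genes were measured. At 3 months 5 of them were higher in the double mutant (median 0.51), against 47.6% of all genes. S100a4, found in fibroblasts and macrophages, was 2.26-fold higher there (2243 against 994), S100a6 1.57-fold and S100a10 1.56-fold, the last with another probe set going the opposite way. S100a8 and S100a9, counted with the neutrophil markers and not in this list, were 9.56-fold (343 against 35.9) and 10.7-fold (216 against 20.2) higher in the same comparison. Of the 6 measured neutrophil markers 5 were higher, 4 of them at or past 2-fold (median 1.46), and all 12 macrophage markers were higher. Their part in the S100 values was not tested.

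**Figure D4:**
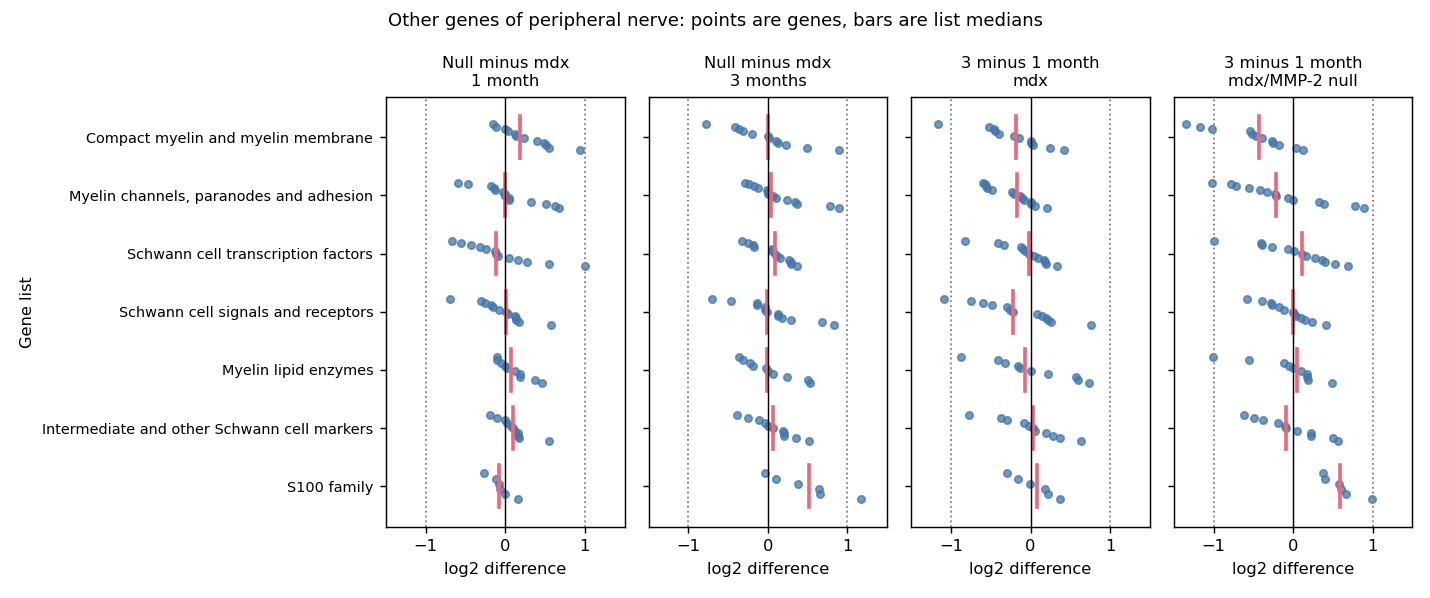
Log2 differences of the measured genes of 7 lists of peripheral nerve genes in the 4 differences between 2 arrays; points are genes, red bars are list medians and dotted lines mark 2-fold. The list of compact myelin and myelin membrane has its median at -0.43 for age in the double mutant. The S100 family has its median at 0.51 for genotype at 3 months and 0.59 for age in the double mutant.

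Markers of other cells were set beside these values. Of 14 axon and neuron markers, whose RNA lies mostly in cell bodies outside the muscle, 7 were at the floor on all arrays, among them the neurofilaments Nefl, Nefm and Nefh, and the summed signal of the others lay between 146 and 172. Of 8 oligodendrocyte markers, cells that also make Mbp and Mag, 5 were at the floor, among them Olig1, Olig2 and Mog, and the rest summed to between 41.2 and 49.2. Of 6 melanocyte markers, cells that also make Sox10, Mlana, Dct, Tyr and Tyrp1 were at the floor. Pmel passed it in mdx at 1 month alone, at 19.7, and Mitf lay between 193 and 254. Of 8 adipocyte markers 5 were measured. Their summed signal was 12202 in mdx and 13045 in the double mutant at 1 month against 11092 and 10598 at 3 months. Most of that sum came from Fabp4 and Lpl, with mean signals of 6437 and 5085. By gene, 3 of the 5 were lower in the double mutant at 1 month (median -0.18) and 4 were higher at 3 months (0.32). Of all genes, 48.3% were lower at 1 month and 47.6% higher at 3 months.

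Several lists of other cell types were also lower at 3 months, while macrophage and neutrophil markers differed in direction between genotypes. Of all genes, 47.7% were lower at 3 months in mdx. In the double mutant 45.7% were lower and 50.1% higher. Endothelial markers were lower in 9 of 10 cases in mdx (median -0.59) and in 10 of 10 in the double mutant (-0.74), with summed signals of 2460 and 2664 at 1 month and 1724 and 1633 at 3 months. Satellite cell markers were lower in 10 of 10 cases in mdx (-0.53) and in 6 of 10 in the double mutant (-0.33). Fibroblast markers were lower in 8 of 10 and 7 of 10 cases (-0.34 and -0.21), with summed signals of 47439 and 45913 at 1 month and 43148 and 45655 at 3 months. Pericyte and smooth muscle markers were lower in 7 of 10 and 8 of 10 cases (-0.12 and -0.11). Macrophage markers were lower in 9 of 12 cases in mdx (-0.29) and higher in 12 of 12 in the double mutant (0.38). Neutrophil markers were lower in 5 of 6 cases in mdx (-0.69) and higher in 5 of 6 in the double mutant (1.16). Of the T and NK cell markers 2 of 8 were measured, both higher at 3 months in each genotype, and of the keratinocyte markers 3 of 6, with a median of -0.40 in mdx and 0 in the double mutant. Perineurium and endoneurium markers were lower in 5 of 6 and 4 of 6 cases (-0.33 and -0.23), and adipocyte markers in 5 of 5 and 3 of 5 (-0.19 and -0.04). Of the 12 muscle fibre markers 5 were lower in each genotype, with medians of 0.02 in mdx and 0 in the double mutant. The Actb 3'/5' ratio was higher on both 3-month arrays, while that of Gapdh differed little, as given above. The part of any of these in the age differences of Mbp and Pmp22 was not tested.

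The median profile of the 6 genes over the 4 arrays, centred on each gene's mean, was 0.20 in mdx and 0.12 in the double mutant at 1 month and -0.34 and -0.14 at 3 months. Of 7604 genes whose highest signal reached the 75th percentile of all signals, the 5 with the smallest Euclidean distance to it were Pam, Add1, Svbp, Cdc20 and Kmt5c, at 0.08 to 0.089. With 4 arrays many genes come close to any profile, and 283 of the 7604 lay within a distance of 0.2.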

How the data were processed

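The authors deposited a linear MAS5 signal intensity for each of 45101 probe sets on 4 arrays; Affymetrix Expression Console is named in the submitters' processing notes. Its version and scaling target are not given in the sources used here. Groups came from the sample labels. After 64 control probe sets were left out, arrays were quantile normalized in limma 3.58.1 (R 4.3.3), floored at 17.4 and put on the log2 scale. Gene symbols came from GEO's platform annotation. Differences between 2 arrays have no test, and genes at or past 2-fold were counted. The additive model used lmFit and eBayes with Benjamini-Hochberg adjustment over 12801 genes. It was also run on simulated data, with planted genotype changes larger than any genotype difference of the members. That run does not show how the model treats differences of their size. Tables were made in Python 3.11.15. Members, gene lists and tests were chosen with earlier results of these data known. Genes were named by a rule: all members, Mmp2 and Dmd, 15 fixed nerve genes, nerve list genes past 2-fold, up to 3 with the largest difference per list, the 5 most alike in profile, and up to 3 per marker list; other marker genes named are those at the floor. Promoter motifs were chosen after the data had been seen. Alternatives covered scaling, floor, pseudocount, probe set choice and the variance prior. MAS5 takes mismatch probes off the signal, so low values are noisy.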

Additional observations from a re-analysis of the deposited data

Results flagged for a closer look

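Ngfr had genotype differences of opposite direction at the 2 ages, at 1 month lower in the double mutant (-0.49) and at 3 months higher (0.47). The difference between them was 0.96 on the log2 scale. With 1 array on each side this difference was not tested, and its lowest signal, in mdx at 3 months, lay just above the floor.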

How the results depend on the processing

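Each result was recomputed under 8 alternatives of scaling, floor and probe set choice. With a floor at the 60th percentile Mag was on no array above it, so that medians there are over 5 genes. The median over the members measured kept its direction under 8 of 8 for genotype at 1 month (0.06 to 0.30) and for age in mdx (-0.56 to -0.17), and under 7 of 8 for genotype at 3 months (0.0 to 0.59) and for age in the double mutant (-0.22 to 0.014). With no scaling the medians were 0.30 and 0.59 for genotype at 1 and 3 months and -0.10 for age in the double mutant, and 0 genes were past 2-fold for age in either genotype. A floor at the 60th percentile gave a median of 0 for genotype at 3 months and 0 genes past 2-fold for age in mdx. The mean of all probe sets gave -0.17 for age in mdx and 0.014 in the double mutant, with 0 genes past 2-fold in both. A pseudocount of 5.09, the 25th percentile of all signals, in place of the floor put 1 gene, Mag (1.43), past 2-fold for genotype at 1 month. That setting keeps all 18193 genes, of which 539 were at least 2-fold higher and 572 lower. In the main setting 73 and 74 of 12801 were. With a variance prior that follows signal, the additive fit called 1 of the 6 genes, and 131 of all 12801, for either term. At an unadjusted p it called 3 of the 6 and 2201 of all 12801. Under the alternatives of processing it called 0 of the 6, with 100 of all genes called without scaling and 12 with median scaling. Mbp was lower at 3 months under all 8 alternatives in mdx (-0.84 to -0.11) and in the double mutant (-1.34 to -0.69), and Pmp22 likewise (-0.57 to -0.43 and -0.63 to -0.21). Mbp was higher in the double mutant at 1 month under all 8 (0.42 to 0.64), and at 3 months under 7 (-0.09 to 0.53). The sign of S100b turned for genotype at 1 month (lowest value -0.11) and that of Sox10 at 3 months (highest value 0.064) under 1 of 8 each, and that of S100b for age in the double mutant (highest value 0.20) under 1. For genotype at 3 months S100b and Ngfr were at 0 with the floor at the 60th percentile. Leaving out an array leaves no residual degree of freedom, so that alternative gave no value. No paired analysis was possible because each group had 1 array. Signals of Mag, Sox10, S100b and Ngfr near the floor limit what their differences can show.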
